A study of Arabidopsis thaliana with 12 samples.

Results

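The net change of transcript levels over the first 4 days of synchronized flower formation was determined in Arabidopsis inflorescences. For each probe, the log2 change of day 2 over day 0 and the log2 change of day 4 over day 2 were added within each replicate set, which gave 4 values of day 4 over day 0. The 2 arrays of a set were taken to carry the same day 2 extract, from their replicate numbers and the methods of the study, so that its level leaves the sum. These values come from 8 of the 12 arrays of the series, and 20203 loci were tested. All plants carried pAP1:AP1-GR in the ap1-1 cal-1 background. Day 4 tissue came from inflorescences treated daily with dexamethasone (DEX) and collected 4 days after the first treatment. Day 0 tissue had received a mock solution without DEX and was collected directly afterwards, per the methods of the study. After the first treatment, the daily treatments were given earlier in the day than the hour of harvest, per the same methods. Each extract was made from pooled inflorescences of many plants, and the 4 sets were biologically independent. AP1-GR is driven by the promoter of AP1, so that the factor is present where that promoter is active. Since no mock-treated tissue of day 4 was hybridised, DEX, elapsed time and repeated handling cannot be told apart.

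In ap1 cal plants, meristems that would form flowers instead keep producing further meristems, which gives cauliflower-like heads. APETALA1 (AP1), a MADS-domain transcription factor, promotes floral meristem identity, and its fusion to the glucocorticoid receptor domain holds it out of the nucleus until DEX is applied. Young flowers then activate the homeotic MADS-box genes, which specify sepals, petals, stamens and carpels in combination, and regulators of boundaries, polarity and growth that shape these organs.

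The ratios were taken from the series table. The scanner files of 6 of the 8 arrays held the same ratios, and the share of probes detected well above background ranged between 56.7% and 60.8% on them. The files of the 2 arrays of day 0 to day 2 in sets 3 and 4 did not match the table, so that detection at day 0 was judged on sets 1 and 2 alone. The arrays of day 0 to day 2 of sets 1 and 2 were on 1 slide. For sets 3 and 4 the slide of this step is not known, since their files did not match. The arrays of day 2 to day 4 were on another slide for sets 1 and 2 and on a further one for sets 3 and 4. Across probes, the net values of any 2 sets correlated at r = 0.60 to 0.80. This is a description across probes, which are not independent, without a p.

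At day 4, 1498 genes were called higher and 902 lower than at day 0, which together are 2400 genes or 11.9% of the loci tested (7.41% higher and 4.46% lower). A gene was called when at least 1 of its probes had an adjusted p below 0.05 (limma, Benjamini-Hochberg over all probes) and a change of at least 1.8-fold. Of the called genes, 62.4% were higher. The median change over all loci was -0.04 on the log2 scale. Between 15.8% and 20.0% of the probes lay beyond 1.8-fold in each single set. Fitted without the dye term, sets 1 and 2 alone gave 1723 genes, and sets 3 and 4 alone gave 1112 genes. The values of single genes below come from the brightest probe of a gene, and by this probe 2278 genes (11.3%) were called, 1450 higher (7.18%) and 828 lower (4.1%). Of the 1450 genes, 239 were not above background on either day 0 array that was judged, and 121 of the 828 genes were not above background on any day 4 array. Such genes passed the filter through a single day and have only a bound on their fold.

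The 2 steps contributed unequally to the net change. By the same rule, 14.1% of the loci were called for day 2 over day 0 (8.11% higher and 6% lower) and 8.78% for day 4 over day 2 (3.39% higher and 5.39% lower). By the brightest probe these shares were 13.4% (7.88% higher and 5.57% lower) and 8.51% (3.27% higher and 5.24% lower). These comparisons share extracts with the net change, so that their values are given side by side without a test of their likeness. Genes called higher at day 4 than at day 0 had a median change of 1.41 from the first step (quartiles 0.53 and 3.21) and of 0.18 from the second (quartiles -1.23 and 0.89). Genes called lower had medians of -1.11 (quartiles -1.55 and -0.74) and -0.23 (quartiles -0.63 and 0.07). Among the genes that were higher at day 4, the second step therefore held both further increases and returns toward day 0.

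**Figure D1:**
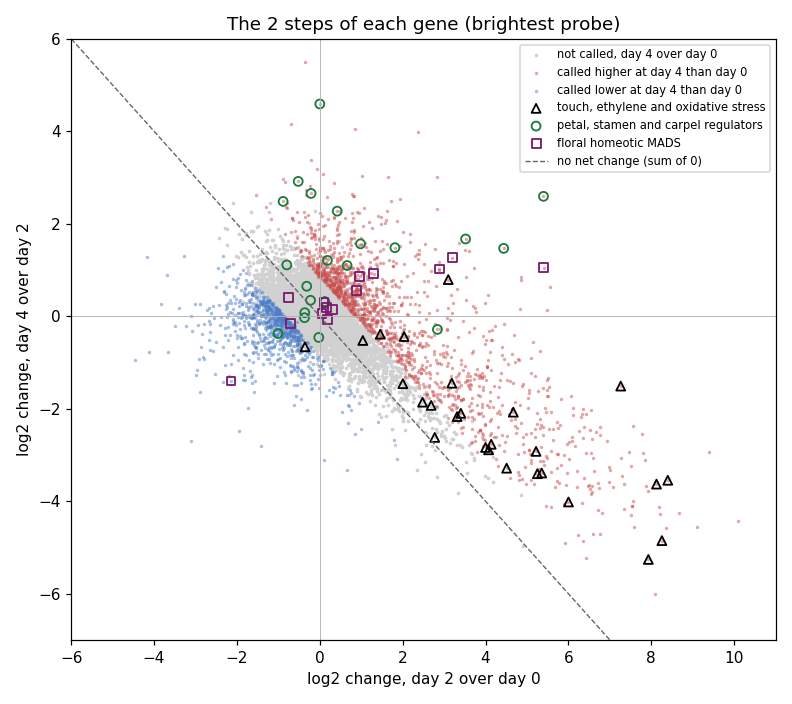
The log2 change of day 2 over day 0 (horizontal axis) and of day 4 over day 2 (vertical axis) is plotted for the brightest probe of each gene, with genes called for day 4 over day 0 in colour and members of 3 gene lists outlined. The dashed line marks a net change of 0. Most stress genes lie at the lower right, near or above that line, with CML39 above 0 on the vertical axis and TCH2 to the left of 0, whereas most organ regulators that changed lie above 0 on the vertical axis.

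The 28 genes at both ends, chosen as the 14 largest fitted increases and the 14 largest fitted decreases among called genes with 4 values of one sign, kept their calls without each set in turn. Of these genes, 8 increases and 5 decreases were not above background at one of the days, so that their true sizes and ranks are not known. SUPERMAN (SUP, AT3G23130), a zinc finger regulator of the boundary between stamens and carpels, was among them with net values of 8.65, 7.37, 8.16 and 7.79 in sets 1 to 4. Its fitted change was 7.99 ± 0.15 (SE, n = 4, adjusted p = 1.84e-05). The SUP probe was not above background at day 0, so that the bound from the intensities was at least 5.25-fold higher at day 4.

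APETALA3 (AP3, AT3G54340), needed for petal and stamen identity, had net values of 6.71, 5.41, 7.23 and 6.47, and a mean change of 6.45 ± 0.18 (SE, n = 4, adjusted p = 2.75e-05). All 4 values lay far above the 1.8-fold threshold. Of 3 AP3 probes, all were called, with changes of 3.07 to 6.45. JAGGED (JAG, AT1G68480), which promotes growth of lateral organs, had values of 5.61, 6.36, 6.26 and 5.40, and its 3 probes gave changes of 1.97 to 5.91. RABBIT EARS (RBE, AT5G06070), a petal regulator, had values of 5.04, 4.53, 5.83 and 5.36. In these genes the second step added to the first: SUP gained 5.40 and then 2.59, AP3 5.41 and then 1.05, JAG 4.44 and then 1.47, and RBE 3.52 and then 1.67. Each of these steps was called.

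Other genes among the 14 increases were EIR1 (AT5G57090), an auxin efflux carrier known from root gravitropism (6.34 ± 0.24), FLP1 (6.18 ± 0.17, with a bound of at least 2.76-fold), a relative of the flowering promoting factor FPF1, and REM22 (5.83 ± 0.17), a B3-domain gene (SE, n = 4). EIR1 had values of 6.37, 6.88, 5.84 and 6.28, and its fold was at least 2.11. GA2OX1 (AT1G78440), which inactivates gibberellin, reached 5.64 ± 0.17, with a bound of at least 2.87-fold.

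Several of the 14 increases were smaller at day 4 than at day 2, both relative to day 0. PHT3;2 (AT3G48850), a mitochondrial phosphate carrier, was 10.09 higher at day 2 than at day 0, changed by -4.42 from day 2 to day 4, and had a net change of 5.67 ± 0.44 (SE, n = 4). Its net values were 5.54, 3.85, 6.65 and 6.64. AT4G12735, with no name in the gene table, was listed at 9.41 and then -2.93, but was not above background at day 0, so that its net increase is known as at least 5.19-fold. AOX1A (AT3G22370), a mitochondrial alternative oxidase, gained 7.26 and then changed by -1.51. AT1G26420 was listed at 7.79 and then -2.55, and was also not above background at day 0, with a net increase of at least 3.37-fold. In each of these 4 genes the second step was called lower, so that the change at day 4 was smaller than at day 2, yet all 4 net values of each gene were at 3.85 or above.

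**Figure D2:**
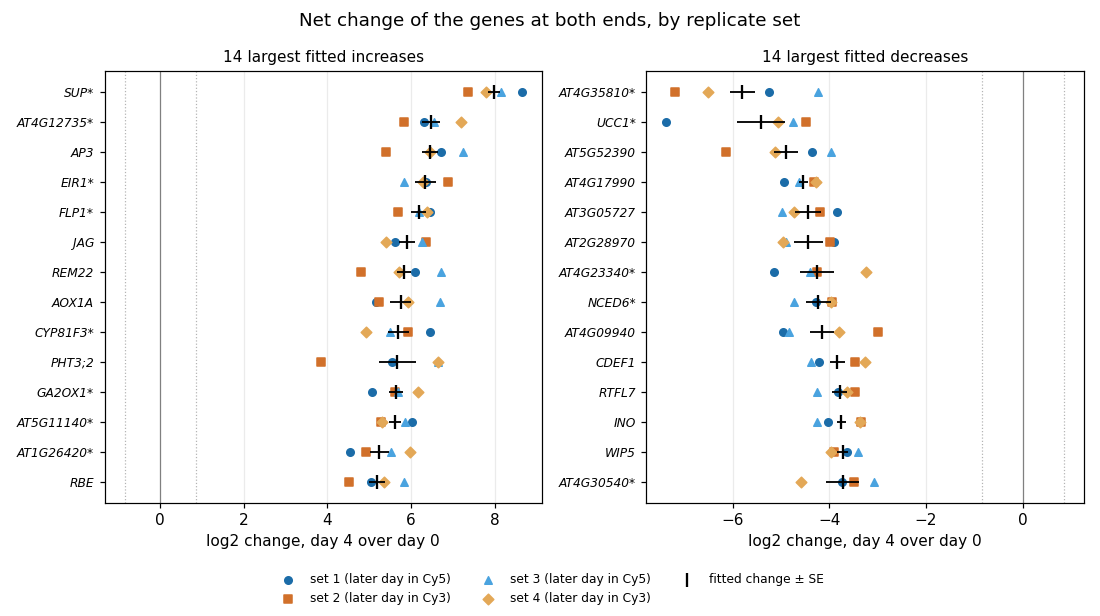
Net log2 changes of day 4 over day 0 are shown for the 14 largest fitted increases (left) and the 14 largest fitted decreases (right), with 1 symbol for each of the 4 replicate sets and the fitted change with its standard error in black. Dotted lines mark 1.8-fold, and an asterisk marks the 13 genes with only a bound on their fold. Every symbol of the 28 genes lies beyond these lines.

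Among the decreases, AT4G35810, with no name in the gene table, had net values of -5.26, -7.19, -4.23 and -6.51, for a mean of -5.80 ± 0.25 (SE, n = 4, adjusted p = 7.26e-05). It was above background at day 0 but on no day 4 array, which bounds its decrease at 3.22-fold or more. UCC1 (AT2G32300), a copper-binding uclacyanin, had values of -7.37, -4.48, -4.75 and -5.07 and a bound of 1.78-fold or more, so that set 1 was the lowest of the 4.

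Among genes still detected at day 4, INNER NO OUTER (INO, AT1G23420), a YABBY gene of the outer ovule integument, had values of -4.03, -3.34, -4.26 and -3.37. The zinc finger gene WIP5 (AT1G51220) had -3.63, -3.89, -3.40 and -3.97. The 3 probes of each were called lower. Both steps were called for INO (-2.33 and -1.42) and for WIP5 (-1.74 and -1.98). CDEF1, a cutinase (-3.83 ± 0.16), and RTFL7, a small ROTUNDIFOLIA-like peptide gene (-3.79 ± 0.15), were above background on 1 and 3 of the 4 day 4 arrays (SE, n = 4). NCED6, an enzyme of abscisic acid synthesis, was on none, and its decrease was at least 1.37-fold.

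AP1 itself did not pass the fold threshold. The probe sequences were not available, so whether its probes separate the transcript of the transgene from that of the mutated AP1 locus is not known. The net values of AP1 (AT1G69120) were 0.66, -0.06, 0.56 and 0.65, with a mean of 0.45 ± 0.12 (SE, n = 4, adjusted p = 0.0346). One of the 4 values was thus at 0, and none of 3 probes was called.

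This and the following gene lists were chosen with earlier results of these data known, so that their counts are descriptions and not tests. Of 15 homeotic and related MADS-box genes, 14 were tested, and 6 were called higher and 2 lower, against 7.18% and 4.1% of all loci by the brightest probe. Their median change was 0.42, against -0.04 over all loci, and between 0.46 and 0.63 in the single sets. As STK, described below, passed the filter only through day 0 and had to be lower at day 4, the other 13 describe the list better. Of these 13 genes, 6 were called higher and 1 lower, with a median of 0.45. Of the 19105 loci detected on both days, 1209 were called higher and 652 lower. SEPALLATA3 (SEP3, AT1G24260), a cofactor of the homeotic proteins, had net values of 5.32, 3.65, 5.44 and 3.45 and a mean change of 4.47 ± 0.07 (SE, n = 4, adjusted p = 1.42e-05). The 2 sets with the later day in Cy5, sets 1 and 3, gave the higher values, and the dye term of the fit removes this gap from the standard error. AGAMOUS (AG, AT4G18960), the gene of stamen and carpel identity, had values of 4.15, 3.38, 4.21 and 3.87.

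SEP2 (2.22 ± 0.07), SEP1 (1.83 ± 0.09) and PISTILLATA (PI, 1.44 ± 0.06), the partner of AP3, rose less (SE, n = 4). PI had values of 1.91, 0.95, 1.83 and 1.09. For SEP3, AG, SEP2, SEP1 and AP3 both steps were called higher, while the second step of PI (0.55) was under the fold minimum. SEP4 (0.35), AGL8 (0.10), AGL6 (-0.34), SHP1 (0.11) and SHP2 (0.39) were not called. SHP1 and SHP2 act in carpels and fruits.

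SEEDSTICK (STK, AT4G09960), the ovule identity gene, was lower at day 4, with net values of -3.04, -3.97, -3.89 and -3.28, and a mean of -3.54 ± 0.27 (SE, n = 4, adjusted p = 0.000447). It was above background at day 0 and on no day 4 array, so that its decrease was at least 1.60-fold. CAULIFLOWER (CAL, AT1G26310), which is mutated in these plants, had values between -1.13 and -0.60. Its mean of -0.87 lay at the fold minimum, and its call was lost without set 3 (-0.83) and without set 4 (-0.83). AGL13 was not tested.

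Of 25 regulators of petals, stamens and carpels, 22 passed the filter, and 12 were called higher and 1 lower, against 7.18% and 4.1% of all loci. As 6 of the 22 passed only through day 4 and had to be higher there, the other 16 describe the list better. Of these 16 genes, 7 were called higher and 1 lower, with a median change of 0.43, against -0.04 over all loci. Of the 19105 loci detected on both days, 1209 were called higher and 652 lower. With the 5 called genes that had a bound set to it, the median of the 22 genes was also 0.43, and it was 1.68 with their fitted changes. The second step was called higher in 12 of the 22 genes. Of these, NZZ, SUP, KNU and HEC2 had passed only through day 4, so that the filter raises this count. By the brightest probe, 3.27% of all loci were called higher in the second step. This step and the net change share the day 4 extracts.

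NZZ (also SPOROCYTELESS, AT4G27330), which starts spore formation in anthers and ovules, was listed at a ratio of 0 on all 4 arrays of day 0 to day 2 and gained 4.87, 4.86, 5.20 and 3.44 by day 4. It was above background on all day 4 arrays and on neither day 0 array, and its fold was at least 1.85. CRABS CLAW (CRC, AT1G69180), a YABBY gene of carpels and nectaries, had net values of 2.84, 1.22, 3.24 and 2.28, with a first step of -0.52 and a second step of 2.92. KNUCKLES (KNU), which terminates floral stem cells, had net values of 2.41, 1.74, 3.21 and 2.41. KNU was above background on 2 of 4 day 4 arrays, and its bound was only 1.18-fold.

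Of the NGATHA genes, which act in style and carpel formation, 3 rose. NGA1 reached 2.55 ± 0.10, NGA2 2.69 ± 0.12 and NGA3 1.60 ± 0.17 (SE, n = 4), while NGA4 (0.31) was not called. NGA1 had net values of 3.10, 2.08, 3.21 and 1.81, and the dye term removes the gap between sets 1 and 3 and sets 2 and 4 from its SE. NGA3 was called lower in the first step (-0.89) and higher in the second (2.48). NUBBIN (NUB), the closest relative of JAG, rose by 3.30 ± 0.16. HEC1 and HEC2, bHLH genes of the carpel, rose by 2.55 and 1.76, with bounds of 1.14-fold and 1.08-fold at least. The call of HEC2 was lost without set 3 (1.40) and without set 4 (1.62).

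STYLISH1 (STY1) was the single member called lower, with values of -1.29, -1.28, -1.75 and -1.22. The glutaredoxin genes of petals and anthers were not called. ROXY1 changed by 0.43, and the values of ROXY2, not above background at day 0, were scattered between -1.18 and 4.78. The probes of TGA9, a bZIP gene of anthers, disagreed. The brightest gave -0.40, whereas the other 3 of its 4 probes were called higher, up to 3.74, so that no direction is given for TGA9. TGA10, HEC3 and IND were not tested.

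Of 20 genes of organ polarity, 7 were called higher, 2 lower and 11 not, against 7.18% higher and 4.1% lower over all loci, and their median was 0.38. WOX1 (AT3G18010), which promotes blade outgrowth, had net values of 2.44, 3.82, 3.42 and 3.00, all of it gained in the second step (3.38, against -0.21 in the first). The related gene WOX3 rose by 1.26 ± 0.08 (SE, n = 4). The YABBY genes FIL and YAB3, which mark the lower side of organs, rose by 1.14 ± 0.06 and 1.13 ± 0.13, with first steps of 0.18 and -0.01. FIL showed the dye gap in the other direction, with 0.67 and 0.52 in sets 1 and 3 and 1.69 in each of sets 2 and 4.

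AS2 (0.94, with 3 values, since set 1 had an excluded spot), KAN3 (0.88) and ATHB-8 (0.87) lay close to the fold minimum. The calls of KAN3 and ATHB-8 were lost in places: KAN3 without set 1 (0.78) and without set 4 (0.79), ATHB-8 without set 2 (0.84). Lower at day 4 were INO and ATS (-1.44 ± 0.18, SE, n = 4), both known from ovule integuments. PHB, PHV and REV, HD-ZIP III genes of the upper side, had changes of 0.51, 0.38 and -0.15 and were not called.

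**Figure D3:**
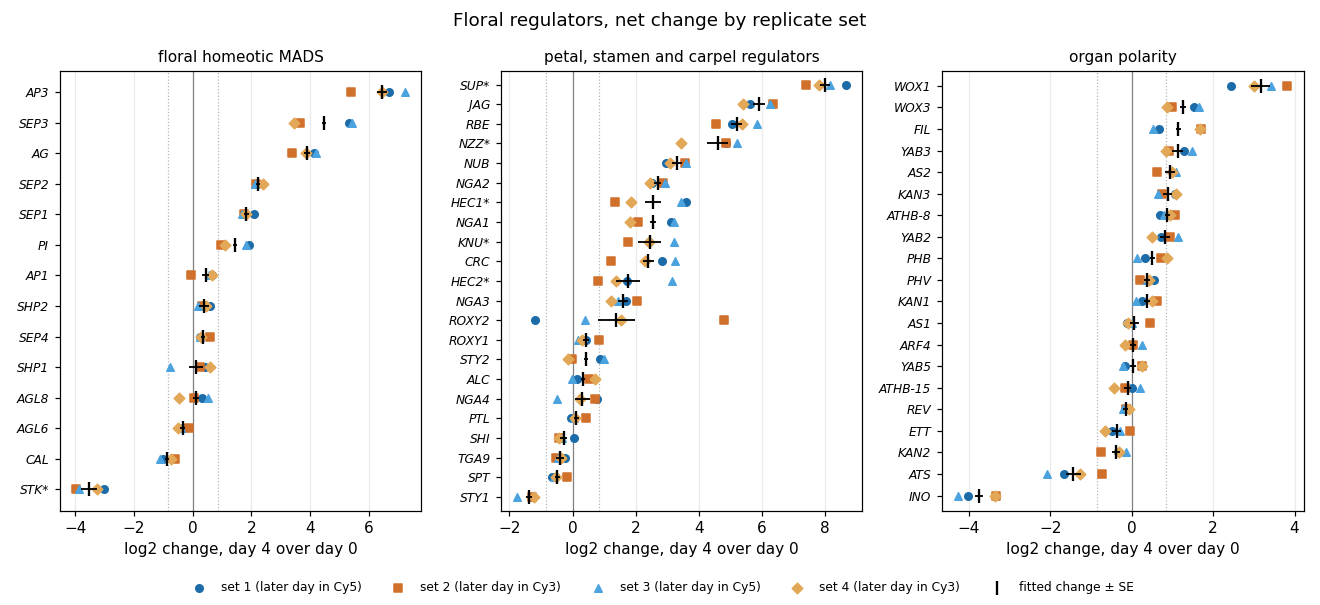
Net log2 changes of day 4 over day 0 are shown for the tested members of 3 lists, with 1 symbol for each of the 4 replicate sets and the fitted change with its standard error in black. Dotted lines mark 1.8-fold, and an asterisk marks genes with only a bound on their fold. The symbols of AP3, SEP3, SUP, JAG, RBE and WOX1 lie to the right of these lines in all sets, and those of STK and INO to the left.

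Of 21 tested genes of inflorescence identity and flowering time, 8 were called lower, 3 higher and 10 not, against 4.1% lower and 7.18% higher over all loci, and the median was -0.30. FD (AT4G35900), the bZIP partner of the florigen FT, had net values of -1.85, -1.30, -2.05 and -1.87. The MADS-box genes SVP (-1.39 ± 0.11) and AGL24 (-1.30 ± 0.08) fell, as did TOE3 (-1.93 ± 0.12) and TOE1 (-0.99 ± 0.11), members of the AP2 family (SE, n = 4). AGL72 (-0.97), AGL42 (-0.87) and the floral repressor FLC (-0.99) lay nearer to the threshold. The call of AGL42 was lost without set 4 (-0.84), and that of FLC without set 1 (-1.17), set 3 (-0.81) or set 4 (-0.80). SOC1 (-0.65), a promoter of flowering, and TFL1 (-0.23), which keeps inflorescence meristems indeterminate, were not called.

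Among the 3 genes called higher in this list, LEAFY (LFY, AT5G61850), a regulator of floral meristem identity, had net values of 0.90, 0.91, 1.23 and 1.13. It gained 1.01 in the first step and 0.04 in the second. AP2, a homeotic gene of sepals and petals, had values of 1.31, 1.06, 1.04 and 1.34. RAV2, an AP2/B3 gene, had values of 3.38, 3.87, 4.11 and 3.52, after an increase of 6.98 at day 2. LMI1, a homeobox gene acting with LFY, was called lower in the first step (-1.61) and higher in the second (1.30), and its net change was -0.30 (adjusted p = 0.133).

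Of 11 SPL genes, which promote flowering and phase change, 2 were called lower and none higher, against 4.1% and 7.18% of all loci. SPL9 changed by -1.16 ± 0.06 and SPL15 by -1.61 ± 0.09 (SE, n = 4), with values between -1.32 and -1.02 and between -1.96 and -1.38. SPL3 (-0.40) and SPL5 (-0.58), called lower in the first step, were not called over 4 days. SPL2 was not called by its brightest probe (-0.66). Of its 4 probes, 1 was called lower, and the probes gave changes of -2.05 to -0.66. The median of this list was -0.71 in the first step and 0.13 in the second.

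Among 16 genes of the shoot meristem and its boundaries, 1 was called higher, close to the 7.18% of all loci, and 3 lower, against 4.1%. The median was -0.34. PNF, a BELL homeobox gene, changed by -1.19 ± 0.06 and BOP1, a boundary gene, by -1.10 ± 0.09 (SE, n = 4). Of the stem cell genes, WUSCHEL (WUS) had values of -0.63, -1.04, -0.48 and -1.13, and SHOOT MERISTEMLESS (STM) had -0.52, -0.97, -0.39 and -1.14. All 8 values were below 0. The means of -0.82 and -0.75 (limma, adjusted p = 0.000836 and 0.000707) were under the fold minimum, so that neither was called by its brightest probe. Of 3 WUS probes, the 2 that were less bright were called lower. CLV3, the stem cell peptide, was called at -0.92, a call that was lost without set 3 (-0.85) and without set 4 (-0.81). ATH1, a BELL gene, was called higher at 1.69, with values of 2.11, 1.33 and 1.23 in sets 1, 2 and 4, since a spot of set 3 was excluded.

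Of 25 growth regulators, 4 were called higher and 2 lower, against 7.18% and 4.1% of all loci, and the median was 0.16. The growth-regulating factor GRF8 rose by 2.24 ± 0.08 (SE, n = 4), with net values between 1.74 and 2.77, while 8 other GRF genes were not called. TCP10 (1.41 ± 0.10) and TCP13 (1.70 ± 0.13), members of the TCP family that limits proliferation in leaves, rose (SE, n = 4), and both rose in the second step only (1.83 and 1.91, against -0.41 and -0.21 in the first). AIL5 was called at 0.87, a call that was lost without set 1 (0.83) and without set 4 (0.77). AIL7, a relative of AINTEGUMENTA, changed by -1.51 ± 0.10 and SAP, a regulator of flower development, by -1.31 ± 0.12 (SE, n = 4).

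Gibberellin metabolism was represented by 11 tested genes, of which 5 were called higher and 1 lower, against 7.18% and 4.1% of all loci. As GA2OX1, GA2OX6 and GA20OX3 passed the filter only through day 4, the other 8 describe the list better. Of these 8 genes, 3 were called higher and 1 lower, with a median of -0.14. Of the 19105 loci detected on both days, 1209 were called higher and 652 lower. Genes of 4 gibberellin 2-oxidases, which inactivate the hormone, were higher at day 4: GA2OX1, GA2OX6 (2.87 ± 0.23), GA2OX8 (1.46 ± 0.22) and GA2OX2 (1.41 ± 0.18) (SE, n = 4). GA2OX1 had net values of 5.06, 5.61, 5.69 and 6.18. GA2OX6 had 2.33, 2.61, 3.28 and 3.26, with a first step of 5.88 and a second step of -3.01, and its bound was 1.28-fold at least. GA2OX4 (-0.58) was not called.

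Of the genes for synthesis, GA20OX1 was lower at day 4, with values of -1.69, -0.74, -2.60 and -1.84. GA3OX1, which forms active gibberellin, was higher, with values of 3.95, 2.85, 1.91 and 0.88. This spread of 1.31 (SD, n = 4) was wide, and the call of GA3OX1 was lost without set 1 (1.89, limma, adjusted p = 0.0758). The median of all 11 fitted changes was 1.41, and 0.36 with GA2OX1 and GA2OX6 set to their bounds.

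Of 26 genes of touch, ethylene and oxidative stress, 19 were called higher at day 4 than at day 0 and none lower, against 7.18% and 4.1% of all loci. The list was chosen with earlier results of these data known, so that its counts and medians are a description and not a test. As 2 of the 26 passed the filter only through day 4, the 24 genes detected on both days describe the list better. Of these 24 genes, 17 were called higher and none lower. Of the 19105 loci detected on both days, 1209 were called higher and 652 lower. The median was 1.48 over all 26 genes, against -0.04 over all loci, and 1.34 over the 24 genes. In the first step 25 of the 26 were called higher, against 7.88% of all loci, with a median of 4.04. In the second step 21 were called lower, against 5.24% of all loci, with a median of -2.39. The second step is the test of whether the change at day 4 differed from that at day 2. AGC2-1 (AT3G25250), a kinase of the response to oxidative signals, gained 8.40, then changed by -3.55 and had net values of 3.83, 4.62, 5.36 and 5.59. ERF1 (AT3G23240), a transcription factor of the ethylene response, gained 7.93, then changed by -5.26 and had net values of 1.88, 2.48, 2.93 and 3.39.

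The glutathione transferase gene GSTF7 had net values of 4.62, 3.89, 5.10 and 4.37 after a first step of 8.13. GSTF6 and GSTF7 are close relatives, as are GSTU24 and GSTU25, so that their probes may share signal. AOX1A had the largest net change of the list (5.16, 5.23, 6.70 and 5.93). AOX1D gained 8.26, then changed by -4.85 and reached a net change of 3.41 ± 0.32 (SE, n = 4). AOX1D was not above background at day 0, and its fold was at least 1.8. CML39, a calmodulin-like gene, differed from the others: its second step was 0.79 (adjusted p = 0.215), and its net change of 3.89 ± 0.20 (SE, n = 4) had a bound of 1.88-fold.

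The 4 sets were not alike in these genes. The median net change was 0.90 in set 1, 1.66 in set 2, 2.15 in set 3 and 2.12 in set 4. The xyloglucan enzyme gene TCH4, induced by touch, had values of -2.55, -0.01, 2.38 and 2.67 in sets 1 to 4. ERF5 had -0.60 in set 1 and 1.74 to 2.04 in the other sets. ERF6 had -1.38, -0.05, 1.28 and 0.77 and was not called. TCH4, ERF6, ERF104, ERF105, CML38, WRKY53 and TCH2 were the 7 genes without a call, and TCH2 had values below 0 in all sets. In this list 20 genes were called without set 1 and 17 without set 3 or set 4. The calls of ERF5 (without set 2, set 3 or set 4, at 1.23, 0.64 and 1.38), TCH3 (without set 1, set 3 or set 4, at 1.34, 0.98 and 0.62) and ZAT10 (without set 2, at 2.24) depended on single sets. The second arrays of sets 1 and 2 were on another slide than those of sets 3 and 4. With that slide as a block 20 genes were called, while sets 1 and 2 alone gave 14 and sets 3 and 4 alone gave 20 (both without the dye term).

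**Figure D4:**
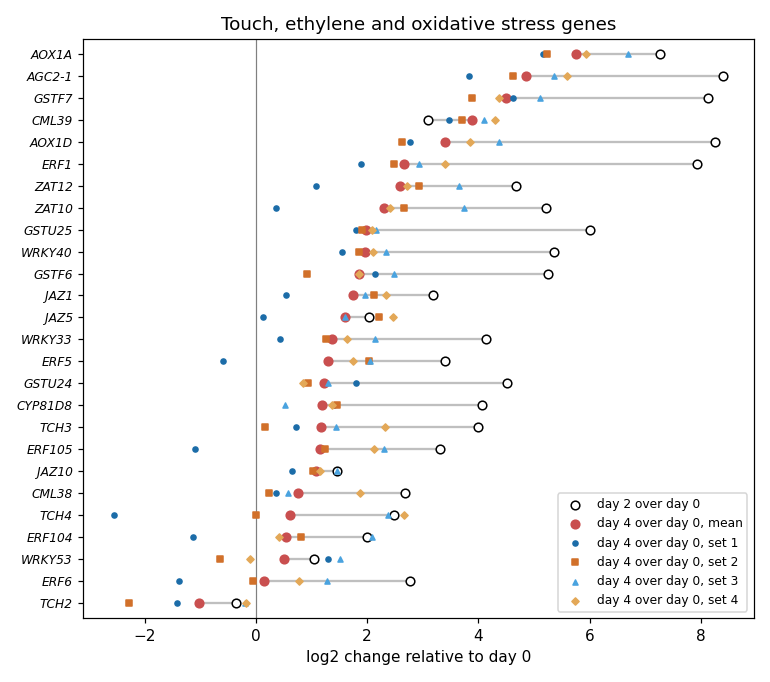
Log2 changes relative to day 0 are shown for 26 genes of touch, ethylene and oxidative stress, as the change at day 2 (open circles), the mean change at day 4 (large filled circles) and the 4 sets at day 4 (small symbols). In 25 of the 26 genes the mean at day 4 lies to the right of 0, and in most of these it lies left of the value at day 2. Set 1 is the lowest in many of the genes.

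Clock genes were included because the phase of the clock at harvest could differ between days. All tissue was harvested at the same hour after lights on, per the methods. Of 13 genes, 3 were called higher and 2 lower, against 7.18% and 4.1% of all loci, and the median was -0.01. The morning genes CCA1, RVE8 and LHY rose: CCA1 had net values of 1.95, 1.55, 2.22 and 1.63, RVE8 rose by 1.07 ± 0.10 and LHY by 0.89 ± 0.10 (SE, n = 4). The call of LHY was lost without set 1 (0.84). The evening genes ELF4 (-1.02 ± 0.08) and BOA (-1.03 ± 0.12) fell (SE, n = 4), whereas GI (-0.02), TOC1 (-0.34) and LUX (-0.42), also expressed in the evening, were not called. The part of the clock in other results was not tested.

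None of 13 genes of mitosis was called at day 4 over day 0, with a median of 0.00 and changes between -0.29 and 0.79. Over all loci 11.3% were called by the brightest probe, and with so few genes a count of none is near that share. By unadjusted p, 8809 of all loci were below 0.05. Of 10 genes of DNA replication, 2 were called lower, against 4.1% of all loci, PCNA1 (-1.04 ± 0.11, SE, n = 4) and CDC6 (-0.92), and the call of CDC6 was lost without set 1 (-0.96), set 3 (-0.87) or set 4 (-0.72). The median of this list was -0.63, and its medians in single sets lay between -0.88 and -0.44. MCM2, MCM3, MCM4, MCM5 and MCM7, subunits of the replicative helicase, had changes of -0.66, -0.61, -0.49, -0.60 and -0.77, all under the fold minimum.

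None of 7 green leaf genes was called, with a median of 0.23 and changes between -0.04 and 0.67. Of 4 root genes, 3 were tested and none was called. For lists this short, none called is near the 11.3% of all loci called by the brightest probe. None of 8 genes of late anthers and the tapetum passed the filter. The inflorescence and floral meristem genes STM, CLV3, WUS, LFY, UFO and KNAT1 all passed it. In bulk tissue, fewer cells of a type and less RNA per cell cannot be told apart. Of 5 genes commonly used as references, ACT2 (0.37), GAPA (0.12), PP2AA3 (-0.11) and AT4G34270 (-0.02) were not called. The single probe of UBQ10 was called lower (-1.37), but it was above background on 1 of 2 day 0 arrays and on no day 4 array, with a bound of 1.01-fold, and the call was lost without any one of the 4 sets (-1.51 to -1.22).

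**Figure D5:**
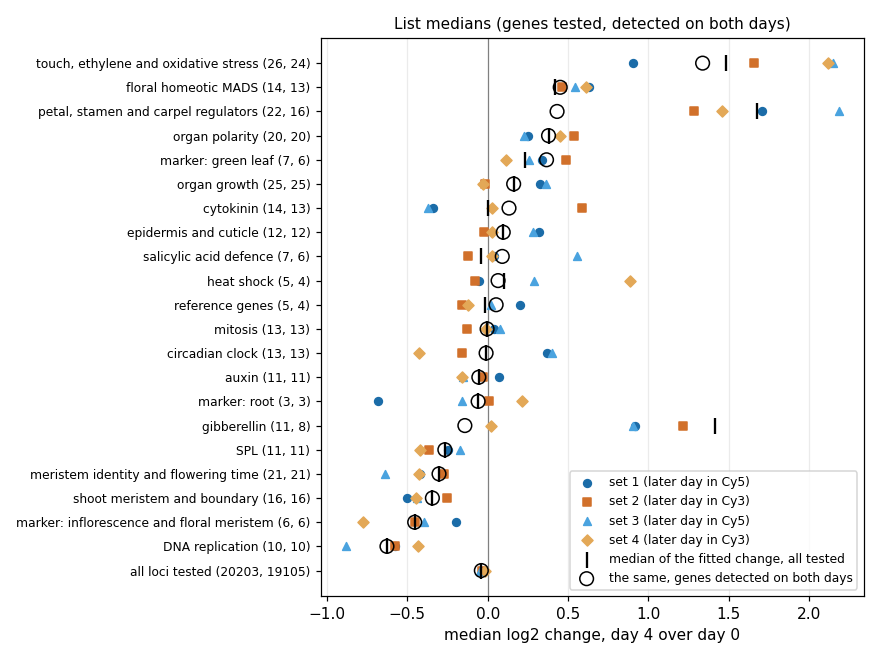
The median net log2 change of day 4 over day 0 is shown for each gene list and for all loci tested, with 1 symbol for each of the 4 replicate sets, the median of the fitted changes as a black bar, the median over genes detected on both days as an open circle, and both numbers of genes in brackets. By the open circles the stress genes lie at the top at 1.34 and DNA replication lowest at -0.63, while the bars of the petal, stamen and carpel and of the gibberellin lists lie far to the right of their circles at 0.43 and -0.14.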

How the data were processed

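Per probe and array, the authors deposited a log10 ratio of Cy5 over Cy3 from Feature Extraction 10.5.1.1, background subtracted and dye normalised. The deposited scanner files give the intensity of both channels and other quality marks. Each ratio was turned so that the later day is on top, converted to log2 and added within sets. From the replicate numbers in the labels and the sets in the methods, both arrays of a set were taken to hold the same day 2 extract. This pairs them, with the extract on opposite sides of the 2 ratios. Deviations of the steps correlated at -0.27 and -0.18 within sets (0.08 and -0.07 between sets). The later day was in Cy5 in sets 1 and 3 and in Cy3 in sets 2 and 4. Over genes called by the brightest probe, the median absolute gap between these 2 dye orientations was 0.42. An SE holds only the spread left after the dye term.

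Probes were kept if 50% or more of the judged channels of day 0 or day 4 were well above background (27156 probes, 1018 without a locus), and 175 outlier spots were left out. The marks of 2 scanner files were not used, since 16.3% and 20.2% of their ratios matched the table within 0.0001. The net values were fitted with limma 3.58.1 in R 4.3.3 with a dye term and an intensity trend, and the steps on 12 arrays. P-values were adjusted over all probes by Benjamini-Hochberg. A value with an SE is the fitted change. Bounds compare normexp (offset 50), loess and Aquantile intensities, set at least to the lowest detected signal, with day 0 from sets 1 and 2. The fit was tested on simulated data. The number of arrays limits the precision.

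Named genes were the 14 largest fitted increases and 14 largest fitted decreases with 4 values of one sign, and members of 22 lists (291 loci, 265 tested). Members and lists were chosen with earlier results of these data known, and lists are described without a test. Symbols come from a TAIR10.1 gene table that matched 99.3% of tested loci. The array follows TAIR8, so coordinates are left out. Alternatives to the filter, the dye term, the pairing, the scaling and the sets used are given in the closing section.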

Additional observations from a re-analysis of the deposited data

Results flagged for a closer look

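In 3 of 113 genes with 4 net values, 1 set lay far from the other sets by Dixon's test of the gap over the range, where chance alone gives about 5% of such groups. ERF5 had -0.60 in set 1, against 1.74 to 2.04 in the other sets. CYP81D8 had 0.52 in set 3, against 1.37 to 1.46 in the others, and STY1 had -1.75 in set 3, against -1.29 to -1.22 in the others. STY1 and CYP81D8 kept their calls without each set in turn, while ERF5 did not.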

How the results depend on the processing

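Of 115 called genes that were listed or among the 28 largest changes, 19 lost their call without at least 1 set. The other 96 kept it in every such fit that could be made. AS2 and ATH1, counted among the 96, have 3 values each and could not be fitted without a further set. The count of called genes was within 1.5 times of 2400 under all other alternatives. It was 1112 with sets 3 and 4 alone (no dye term), 1028 with no filter on dim probes (6 of 26 stress genes, against 19), and 6549 with no fold minimum. It was 0 with the scanner ratios of the 8 files as deposited, of which 2 hold other values (2078 genes at an unadjusted p below 0.05), and 0 with normexp and loess on sets 1 and 2 alone, without the dye term (2128 genes). Leaving out 1 set gave 1818 to 2404 genes. The arrays of a set were taken to share an extract, and treating them as independent, with no replicate block, gave 2199 genes, of which 63.7% were higher. The share of higher genes was 66.9% with arrays centred on their median, 67.4% with sets 1 and 2 alone and 74.7% with sets 3 and 4 alone (no dye term), 48.4% with no fold minimum, and 61.3% to 68.0% without 1 set. A filter over days 0, 2, 4 and 8, chosen after seeing the data, gave 2417 genes. Direction turned in single genes. With the files as deposited, the changes were -0.39 for GA2OX6, -0.82 for TCH3, -0.60 for WRKY33, -0.43 for WRKY40, -0.17 for ZAT10, -0.48 for ERF1, -0.15 for ERF5, -0.36 for GSTF6, -0.60 for GSTU24, -0.34 for GSTU25, -0.31 for CYP81D8 and -0.040 for SHN2. With normexp and loess, they were 0.046 for ARR3 and -0.41 for TCH3. The mean of all TGA9 probes was 2.49. The cause was not tested. Signal over background limits the genes that are detected at a single day, for which only bounds are given.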

Other observations

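In each of 5 other gene groups, 1 or 2 genes were called over the 4 days, where 11.3% of all loci were called. Of 12 genes of the epidermis and cuticle, 2 were called higher. SHN1, a regulator of cutin and wax, had net values of 1.68, 2.25, 0.60 and 1.75 after a first step of -0.78 and a second step of 2.35. SHN2 was called at 0.95, a call that was lost without set 1 (0.74) and without set 2 (0.74). MYB16 and CER1 were called lower in the first step (-1.23 and -0.85) and higher in the second (1.18 and 1.00), and their net changes of -0.05 and 0.15 were not called. Among 7 tested genes of salicylic acid defence, 1 was called higher, PR5, with values of 2.44, 2.41, 3.04 and 1.24. PAD4 gained 1.86 and then changed by -1.90, and its net values lay between -0.16 and 0.07.

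Of 14 tested cytokinin genes, CKX1, which degrades the hormone, was called higher (2.07, 1.58, 1.95 and 2.73), and ARR3, a response regulator, was called lower (-0.61, -2.72, -1.93 and -1.20). ARR3 was above background on no day 4 array, its decrease was at least 1.08-fold, and its call was lost without set 1 (-1.95), set 2 (-1.24) or set 3 (-1.29). Among 11 auxin genes, the flavin monooxygenase genes YUC1 and YUC4 changed in opposite directions, with 0.96 ± 0.11 and -1.07 ± 0.08 (SE, n = 4), and the call of YUC1 was lost without set 3 (0.82). Of 5 tested heat shock genes, HSFA2 was called higher at 1.26, a call that was lost without set 1 (1.39), set 3 (1.13) or set 4 (0.79).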
